A study of Mus musculus with 20 samples.

Results

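H1047R-expressing and non-expressing basal mammary cells of the same mutant genotype were compared. Both fractions were sorted from K8-creERT2/PIK3CA H1047R mice through one basal gate (CD45-negative, CD24low, Sca1-negative) and differed in the GFP gate: GFP-positive cells express the mutant PIK3CA transgene and GFP-negative cells do not. Each fraction had 3 arrays, so the comparison used 6 of the 20 arrays of the series. The 3 arrays of control basal cells, GFP-negative cells of K8-creERT2 mice through the same basal gate, gave the background level. All mice were of a mixed FVB/CD-1 background, had tamoxifen as the labelled treatment, controls included, and were sampled 4 weeks later; the labels give no age. The Cre recombinase is driven by keratin 8, a keratin of luminal cells that was also measured in the basal fractions here. GFP-positive basal cells are thus only those in which this promoter had been active, in the cell itself or in a cell it descends from. These origins cannot be told apart here. Each array held RNA of 2000 sorted cells pooled from several mice, so a lower level in a fraction can stand for fewer cells of a type or for less RNA per cell, and these cannot be told apart.

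PIK3CA encodes a catalytic subunit of phosphoinositide 3-kinase, which makes a membrane lipid that recruits AKT downstream of insulin, insulin-like growth factor (IGF) and ERBB receptors. AKT keeps FOXO transcription factors out of the nucleus and raises mTOR activity, and H1047R is a common activating change of the kinase domain in breast tumours. The mammary duct has an inner luminal layer, which holds the hormone-sensing and milk-producing cells, and an outer basal layer of contractile myoepithelial cells and basal progenitors.

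The values were log2 levels of Affymetrix probe sets, for 19937 genes with a single symbol. A gene was called when its adjusted p was under 0.05 in a linear model over all 20 arrays (limma, Benjamini-Hochberg adjustment over all 19937 genes), and the words "rose" and "fell" describe called genes in the GFP-positive relative to the GFP-negative fraction. Arrays correlated at 0.940 to 0.957 within the GFP-positive fraction and at 0.931 to 0.940 within the GFP-negative fraction, and at 0.916 to 0.937 between them. One GFP-negative array, replicate 2, stood apart for several epithelial genes: Ly6d was at 8.86 there and at 5.36 and 5.44 in the other arrays of its group, and Ehf at 8.36 against 4.91 and 5.26. One GFP-positive array, replicate 2, had a narrower spread of values and received the lowest weight in its fraction, 0.333, when arrays were weighted by their variance. Without GFP-negative replicate 2, 335 genes were called higher and 269 lower in GFP-positive cells, in place of 409 and 239 with all arrays. Without GFP-positive replicate 2, 408 were called higher and 150 lower. The labels speak of 3 independent sortings, and they do not say whether the GFP-positive and GFP-negative cells of one number came from the same mice.

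Both fractions had the marker profile of the gate. Krt5, a keratin of basal cells, was at 10.84, 10.65 and 10.86 in the GFP-positive arrays and at 10.95, 10.59 and 10.63 in the GFP-negative arrays. Acta2, the smooth-muscle actin of myoepithelial cells, was at 11.15, 11.13 and 10.99 against 11.42, 11.09 and 11.41. These ranges overlapped, and the differences were 0.06 ± 0.25 (SE) for Krt5 and -0.22 ± 0.32 for Acta2, with adjusted p of 0.968 and 0.872. In control luminal cells Acta2 averaged 5.50 (Sca1-negative) and 4.25 (Sca1-positive). Krt14 and the basal transcription factor Trp63 gave differences of -0.29 and 0.30, with adjusted p of 0.889 and 0.668. The Trp63 arrays overlapped. For Krt14 every GFP-positive array was below every GFP-negative array, with 0.21 between the nearest. Arrays did not overlap for 15.0% of all genes. Pik3ca gave a difference of 0.21 ± 0.26 (adjusted p = 0.846), with 6.57, 6.98 and 5.97 in the GFP-positive and 6.72, 5.92 and 6.27 in the GFP-negative arrays; the sources used here do not say whether this probe set reads the transgene, so it does not check the labels.

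Between the fractions, 648 genes (3.25% of those tested) passed, of which 409 (2.05%) were higher and 239 (1.2%) lower in GFP-positive cells. The rise was over 1 on the log2 scale in 236 genes, over 2 in 79 and over 3 in 19, and the fall exceeded these sizes in 131, 30 and 7 genes. The groups' arrays did not overlap for 396 of the 409 higher and 234 of the 239 lower genes, beside 2989 of all genes (15.0%). Il24, Saa1, Scrg1, Fndc1 and Sparcl1 had the largest rises among the named genes, and Grik3, Lgr5, Scn7a, Map1b and Cacna2d1 the largest falls. The count depended on how many arrays informed the spread: a fit of the 9 basal arrays alone called 198 genes, 192 of them among the 648, and a fit of the 6 compared arrays alone called 134, 130 of them among the 648. A fit of these 6 arrays with the replicate number as a block called 0 genes (limma; 2049 at an unadjusted p under 0.05). Without GFP-positive replicate 2, 150 in place of 239 genes were lower.

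**Figure D1:**
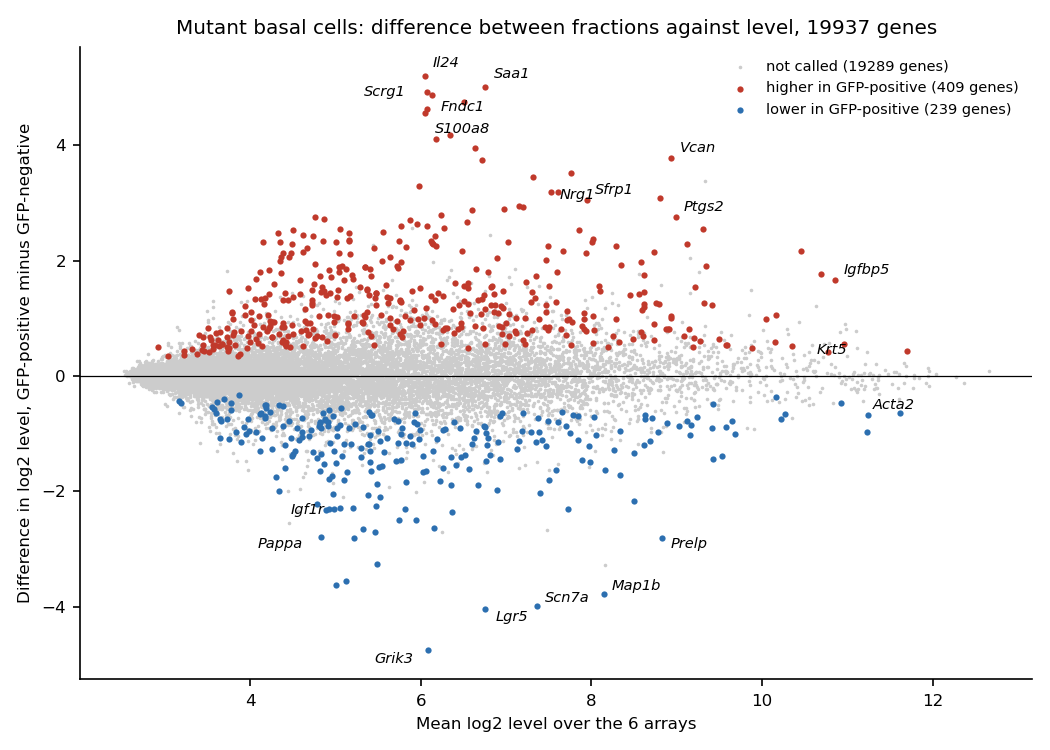
Mean log2 level of each gene over the 6 arrays (horizontal axis) against the difference in mean log2 level, GFP-positive minus GFP-negative basal cells (vertical axis), for 19937 genes. Red points are the 409 genes called higher and blue points the 239 called lower at an adjusted p under 0.05; Il24, Saa1, Fndc1 and Scrg1 lie near 5 and Grik3 and Lgr5 below -4.

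The most raised gene among those named was Il24, a secreted cytokine. It was at 8.60, 9.39 and 7.96 in the GFP-positive arrays and at 3.38, 3.61 and 3.34 in the GFP-negative arrays. Every GFP-positive array was thus far above every GFP-negative array, and control basal cells averaged 3.14. The difference was 5.21 ± 0.36 on the log2 scale, or 36.9-fold higher (adjusted p = 3.48e-07). Il24 belonged to a set of acute-phase and antimicrobial genes, many of them for products that epithelia and liver secrete in inflammation. Like the other lists, the set was chosen with earlier results of these data known, so its counts are a description. The share called over all genes, 3.25%, is the background for the called counts of every list. Of the 22 measured members of this set, 8 rose and 1 fell (40.9% called). Their median difference was 0.88, beside -0.01 over all genes. With each of the 6 arrays left out in turn, 7 to 9 of them rose. The mean log2 level of the set was 7.27, 6.77 and 6.93 in the GFP-positive arrays, 5.60, 5.23 and 5.47 in the GFP-negative arrays and 5.28, 5.51 and 5.36 in the control arrays.

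Saa1 and Saa2 encode serum amyloid A, a classical acute-phase apolipoprotein. Saa1 was at 9.78, 8.88 and 9.13 in GFP-positive and at 5.57, 2.87 and 4.31 in GFP-negative cells. Saa2 was at 9.35, 8.23 and 8.25 against 4.06, 4.08 and 5.84. Neither gene overlapped between the fractions, although the GFP-negative arrays differed among themselves by up to 2.70 for Saa1. The differences were 5.02 ± 0.47 for Saa1 (adjusted p = 8.61e-06) and 3.95 ± 0.39 for Saa2 (adjusted p = 1.28e-05). The genes are near-identical copies, so their probe sets may share signal and the values are uncertain as separate measurements. Their promoters are shown as those of strongly raised genes, and each window holds a match, in capitals, to the C/EBP letters TTGCNNAA. The windows are near-identical too, so the matches are not separate observations. C/EBP factors are known activators of acute-phase genes.
Saa1, chr7:46742931-46743230, minus strand: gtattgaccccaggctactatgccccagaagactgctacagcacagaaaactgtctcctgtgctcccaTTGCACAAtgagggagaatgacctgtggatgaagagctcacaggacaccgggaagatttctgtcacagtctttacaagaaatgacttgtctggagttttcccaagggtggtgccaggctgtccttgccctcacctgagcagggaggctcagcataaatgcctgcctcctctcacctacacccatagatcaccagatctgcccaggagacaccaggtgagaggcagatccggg
Saa2, chr7:46751583-46751882, plus strand: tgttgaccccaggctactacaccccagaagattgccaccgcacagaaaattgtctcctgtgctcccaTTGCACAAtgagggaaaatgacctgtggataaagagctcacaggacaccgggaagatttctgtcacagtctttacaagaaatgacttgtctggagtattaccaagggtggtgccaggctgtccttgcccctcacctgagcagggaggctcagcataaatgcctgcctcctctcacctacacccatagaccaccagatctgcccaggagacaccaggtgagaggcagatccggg
Each run is 5′ to 3′ on the gene's strand, from 250 bases before to 50 after the start in RefSeq (GRCm38.p6), and the match begins at position -182 in Saa1 and -183 in Saa2 from that start. A match is a description of letters and not a measured site.

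The same letters were counted in all promoters of the RefSeq table that matched a gene by symbol. On either strand, TTGCNNAA was in 37 of the 315 promoters found for higher genes (11.7%), in 15 of the 183 for lower genes (8.2%) and in 1511 of all 15613 (9.68%). The STAT letters TTCNNNGAA were in 5.4%, 8.2% and 7.83% of these promoters, the FOXO letters GTAAACA in 1.59%, 2.73% and 3.02%, and the TEAD letters GGAATG in 11.7%, 13.7% and 13.1%. None of these shares was tested.

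Other secreted immune mediators rose as well. S100a8, a calcium-binding antimicrobial protein, was at 8.74, 7.88 and 8.37 against 3.74, 4.03 and 3.52, a difference of 4.57 ± 0.54 (adjusted p = 9.86e-05). Its partner S100a9 gave a difference of 0.08 (adjusted p = 0.929). Hp, the haemoglobin-binding acute-phase protein haptoglobin, was at 8.53, 7.24 and 8.93 against 3.89, 3.91 and 4.59 (4.11 ± 0.57, adjusted p = 0.000472). For S100a8 and Hp every GFP-positive array was above every GFP-negative array. Il33, an alarmin cytokine, was at 8.93, 8.39 and 8.43 against 5.07, 4.79 and 4.67 (3.74 ± 0.31, adjusted p = 2.8e-06). Slpi, a secreted protease inhibitor, was the member of the set that fell, by 0.97 (adjusted p = 0.012).

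Of 32 chemokines and cytokines, 5 rose (15.6% called, beside 3.25% of all genes), with a median difference of 0.05. Besides Il24 and Il33 these were Il19, a cytokine close to Il24 (2.72 ± 0.24), Lif, a cytokine that acts through the receptor chain Lifr (2.30 ± 0.53, adjusted p = 0.0245), and the chemokine Cxcl12 (1.56 ± 0.25). Lif spread widely, at 8.08, 6.57 and 7.23 in GFP-positive and 4.67, 4.06 and 6.26 in GFP-negative cells. Its call was lost without GFP-positive replicate 1 or 3 or GFP-negative replicate 1 or 2. Lifr itself fell: it was at 7.24, 7.59 and 7.62 in GFP-positive and at 9.32, 9.25 and 9.02 in GFP-negative cells. The fall was 1.71 ± 0.14 on the log2 scale (adjusted p = 2.83e-06), and all GFP-positive arrays were below all GFP-negative arrays. It was the called member among 18 JAK-STAT and SOCS genes (5.56%, beside 3.25% of all genes), whose median difference was -0.16. Without GFP-positive replicate 1, 3 members fell, and without GFP-negative replicate 3, 2 did. Socs3, a feedback inhibitor of this pathway, had a difference of -1.57 that did not pass (adjusted p = 0.199).

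Several further genes of inflammatory signalling were chosen after their values had been seen. The lipopeptide sensor Tlr2 rose by 2.90 ± 0.28, the adhesion molecule Vcam1 by 2.88 ± 0.45 and the membrane-bound chemokine Cx3cl1 by 1.93 ± 0.24. Prostaglandin genes rose too: Ptgs2, the inducible cyclooxygenase, was at 10.31, 10.44 and 10.33 in GFP-positive and at 8.83, 5.81 and 8.19 in GFP-negative cells. The GFP-positive arrays lay within 0.13 of each other while the GFP-negative ones ranged over 3.02, and the difference was 2.75 ± 0.51 (adjusted p = 0.00527). Ptges, which makes prostaglandin E from the cyclooxygenase product, rose by 1.87 ± 0.45 (adjusted p = 0.0324), and Hpgd, which inactivates prostaglandins, rose by 2.47 ± 0.36 (adjusted p = 0.00068). Ptges lost its call without GFP-positive replicate 1 or 3 or GFP-negative replicate 1 or 3. Other inflammatory genes went the opposite way. The adhesion molecule Icam1 fell by 1.26 ± 0.30, the NF-kappaB cofactor Bcl3 by 1.84 ± 0.48 (adjusted p = 0.0485), the transcription factor Cebpd by 1.48 ± 0.32 and Nfil3 by 0.87 ± 0.16. Of 22 interferon and antigen presentation genes, 0 were called (limma; 3 at an unadjusted p under 0.05), and their median difference was -0.01.

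**Figure D2:**
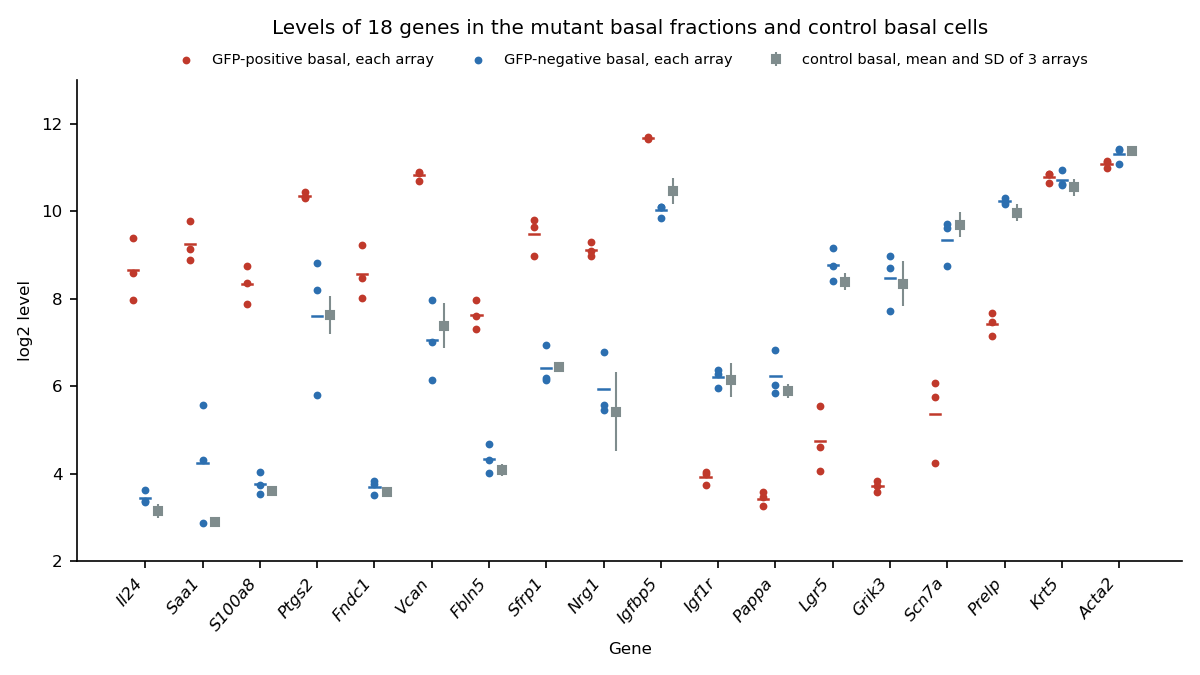
Log2 level of 18 genes in each of the 3 GFP-positive and 3 GFP-negative mutant basal arrays (points), with the mean and SD of the 3 control basal arrays. Il24, Saa1, S100a8, Fndc1 and Fbln5 were high in the GFP-positive arrays, Lgr5, Grik3, Scn7a, Prelp, Pappa and Igf1r were low there, and Krt5 and Acta2 overlapped.

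Extracellular matrix genes formed another large group. Matricellular and proteoglycan genes encode secreted proteins that shape the matrix around the cell. Of 37 measured, 8 rose and 3 fell (29.7% called, beside 3.25% of all genes), with a median difference of 0.33. With one of the 6 arrays left out, 8 to 9 rose. Fndc1, a secreted protein with fibronectin-type domains, was at 9.22, 8.48 and 8.03 in GFP-positive and at 3.50, 3.77 and 3.82 in GFP-negative cells, against a control basal mean of 3.58. It was the gene with the smallest adjusted p among those named, with a difference of 4.88 ± 0.21, or 29.5-fold (adjusted p = 4.4e-09). Sparcl1, a matricellular protein, was at 9.37, 8.13 and 9.16 against 3.98, 4.47 and 3.94 (4.75 ± 0.40). Vcan, the large proteoglycan versican, was at 10.88, 10.71 and 10.90 against 7.01, 6.15 and 7.98 (3.78 ± 0.33). For these genes every GFP-positive array exceeded every GFP-negative one by more than 2 on the log2 scale. Matn2 (3.44 ± 0.33), a filament-forming adaptor of the matrix, and Dcn, the collagen-binding proteoglycan decorin (2.54 ± 0.45), also rose. Scrg1, a small secreted protein outside that list, was at 9.24, 8.20 and 8.17 against 3.27, 4.41 and 3.14 (4.93 ± 0.29, adjusted p = 5.11e-08).

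The matrix genes that fell were Prelp, Tnc and Fn1; 1 gene of the list was called lower without GFP-positive replicate 2 or 3. Prelp, a leucine-rich proteoglycan that anchors basement membranes, was at 7.67, 7.15 and 7.47 in GFP-positive and at 10.32, 10.22 and 10.16 in GFP-negative cells, and control basal cells averaged 9.97. Both fractions were tight for this gene and lay 2.80 ± 0.31 apart (adjusted p = 5.49e-05). Tnc, tenascin C, fell by 1.79 (adjusted p = 0.0408) and Fn1, fibronectin, by 0.65 (adjusted p = 0.0218). The GFP-positive values of Fn1 were 3.46, 3.17 and 3.23, close to the arrays' median level of 3.67 to 3.78.

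Of 28 collagen genes, 7 rose and 1 fell (28.6% called, beside 3.25% of all genes), with a median difference of 0.05. With one of the 6 arrays left out, 5 to 8 rose. The rises included both basement membrane chains Col4a5 (1.49 ± 0.12, adjusted p = 2.8e-06) and Col4a6 (1.14 ± 0.18), the anchoring fibril collagen Col7a1 (0.88 ± 0.10) and the fibrillar Col11a1 (1.68 ± 0.19). Col1a2, a chain of type I collagen, rose by 0.92 (adjusted p = 0.0323). Col14a1, a fibril-associated collagen, fell by 1.11 (adjusted p = 0.0212), with overlapping arrays at 7.86, 6.98 and 7.02 against 8.73, 7.78 and 8.67. Of 26 integrin and laminin genes, Itgav rose by 0.76 and Itga9 fell by 1.43 (7.69% called, beside 3.25% of all genes). Itgav lost its call without GFP-positive replicate 1 or GFP-negative replicate 2 or 3, and Itga9 without GFP-positive replicate 2. Among 23 metalloproteinase and TIMP genes, Adamts9, a versican-cleaving protease, rose by 2.25 (adjusted p = 0.0199), but its 6 probe sets gave 0.09 to 2.25. Adamts4 fell by 1.67, Mmp23 by 1.51 (adjusted p = 0.0382) and Adam19 by 0.43 (adjusted p = 0.045). Of that list 0 rose (limma; 3 at an unadjusted p under 0.05 with all arrays) without GFP-positive replicate 1 or 2 or GFP-negative replicate 3, and 1 to 2 fell with one array left out.

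Further secreted proteins were picked after their values had been seen. Fbln5, which organises elastic fibres, was at 7.97, 7.31 and 7.62 against 4.01, 4.67 and 4.32, a difference of 3.30 ± 0.18 (adjusted p = 2.32e-08). The secreted protease Htra1 rose by 2.79 ± 0.17, the angiogenesis inhibitor Serpinf1 by 3.19 ± 0.36 and the extracellular guidance protein Reln by 2.36 ± 0.14. Reln was at 3.95 to 4.00 in all GFP-negative arrays and at 6.04 to 6.62 in the GFP-positive arrays.

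The secreted Wnt inhibitors Sfrp1 and Sfrp2 rose, and the receptors Lgr5 and Fzd7 and the feedback genes Axin2 and Nkd1 fell. Wnt proteins keep epithelial progenitors in many tissues, and Lgr5, a receptor for R-spondins and itself a Wnt target, is known to mark a subset of basal mammary cells. Lgr5 was at 4.60, 4.05 and 5.55 in GFP-positive and at 8.74, 8.40 and 9.16 in GFP-negative cells, with a control basal mean of 8.39. The fractions were 2.85 log2 units apart at their nearest, and the mean difference was -4.03 ± 0.27, 16.4-fold lower in GFP-positive cells (adjusted p = 2.1e-07). The receptor Fzd7 fell by 1.34 ± 0.28 and the feedback genes Axin2 and Nkd1 by 0.91 ± 0.15 and 1.16 ± 0.30, with adjusted p of 0.0132, 0.00288 and 0.0469. Sfrp1, a secreted protein that binds Wnt ligands, was at 9.79, 8.98 and 9.64 against 6.13, 6.19 and 6.94 (3.05 ± 0.21, adjusted p = 3.84e-07). Sfrp2 was at 9.81, 9.29 and 9.45 against 6.52, 4.44 and 7.03 (3.52 ± 0.61, adjusted p = 0.0031). In all, 2 of 35 Wnt pathway genes rose and 4 fell (17.1% called, beside 3.25% of all genes), and the median was -0.04. Without GFP-negative replicate 2, 7 in place of 4 of them fell, and without GFP-negative replicate 1 or GFP-positive replicate 3, 2 did. Outside this list, and chosen after the values were seen, the BMP and Wnt inhibitor Sostdc1 rose by 2.94 ± 0.51 and the Sfrp family member Frzb by 0.47 (adjusted p = 0.0399). Wif1, another secreted Wnt inhibitor, had a difference of -1.16 (adjusted p = 0.079).

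The insulin and IGF pathway was changed on the side of its receptor and its binding proteins. Of 16 measured genes, 5 rose and 3 fell, with a median difference of 0.28. Without GFP-positive replicate 1, 3 rose, and without GFP-positive replicate 2 or GFP-negative replicate 1, 1 fell. Igf1r, the IGF receptor that signals to PI3K, was at 4.03, 3.73 and 3.98 in GFP-positive and at 5.97, 6.37 and 6.27 in GFP-negative cells. The control basal mean of 6.14 lay with the GFP-negative arrays, and Igf1r fell by 2.29 ± 0.16 on the log2 scale, 4.89-fold lower (adjusted p = 2.78e-07). Irs2, an adaptor between these receptors and PI3K, fell by 0.96 ± 0.21 (adjusted p = 0.0208). Irs1 and the insulin receptor gene Insr had differences of -0.59 and -0.78, which did not pass (adjusted p = 0.307 and 0.355). A second Irs1 probe set gave -0.97, and with its probe sets averaged Irs1 was called lower (-0.78, adjusted p = 0.00527).

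The IGF-binding proteins Igfbp2, Igfbp3, Igfbp4 and Igfbp5, which hold IGF outside the cell, all rose. Igfbp5 was at 11.71, 11.65 and 11.69 against 10.10, 9.86 and 10.11, and Igfbp3 at 11.53, 11.63 and 11.57 against 10.03, 9.43 and 9.96. The GFP-positive arrays lay within 0.05 of each other for Igfbp5 and within 0.10 for Igfbp3, and the rises were 1.66 ± 0.26 and 1.77 ± 0.33. Igfbp4 rose by 1.80 ± 0.39 and Igfbp2 by 1.24 ± 0.21, while Igfbp6 fell by 0.73 (adjusted p = 0.0401). Pappa, a secreted protease known to cut IGF-binding proteins, was chosen after its values were seen: it was at 3.25, 3.46 and 3.57 against 6.82, 6.03 and 5.83. It fell by 2.80 ± 0.18 (adjusted p = 1.73e-07), to a level near the arrays' median. Grb14, an adaptor that inhibits the insulin receptor, rose by 1.27 (adjusted p = 0.0351).

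Inside the PI3K pathway itself fewer genes passed. Of 23 PI3K, AKT and phosphatase genes, 2 rose (8.7% called, beside 3.25% of all genes). These were the regulatory subunit Pik3r3 (1.05 ± 0.21, adjusted p = 0.0106) and the lipid phosphatase Inpp4b (0.53 ± 0.13, adjusted p = 0.0413). The median difference of this list was 0.01, and 1 gene of it was called without any single array other than GFP-positive replicate 3. FOXO-linked targets moved in both directions, with 3 of 24 higher and 4 lower (29.2% called) and a median of -0.11. The stress protein Sesn3 was at 8.73, 8.76 and 8.50 against 6.10, 5.45 and 5.64 (2.94 ± 0.35, adjusted p = 8.92e-05), and catalase, Cat, rose by 1.46 ± 0.31. The mitochondrial superoxide dismutase Sod2 fell by 0.93 ± 0.19 and the thioredoxin-binding protein Txnip by 1.02 ± 0.26, and Igf1r and Irs2 also belong to this list. Without GFP-positive replicate 2, 1 in place of 4 of these genes was called lower, and without GFP-negative replicate 1 or 2, 2 were. Without GFP-positive or GFP-negative replicate 1, 1 in place of 3 was called higher. Ddit4, an inhibitor of mTOR that was chosen after its values were seen, rose by 1.33 (adjusted p = 0.025).

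Nrg1 and Ereg of the ERBB list and Jag1 of the Notch list rose, while the list medians were -0.03 and -0.11. The ligands Hbegf and Dll1 had differences of -0.75 and -0.82, which did not pass (adjusted p = 0.195 and 0.0548). Nrg1, the neuregulin that binds ERBB receptors, was at 9.09, 8.98 and 9.29 in GFP-positive and at 5.45, 5.56 and 6.79 in GFP-negative cells. The GFP-positive arrays were within 0.31 of each other, and the rise was 3.19 ± 0.45 (adjusted p = 0.000586). Ereg, a ligand of the EGF receptor, rose by 1.80 ± 0.30 (adjusted p = 0.00269). These were the called genes among 15 ERBB receptors and EGF-family ligands, and both stayed called with any of the 6 arrays left out. Jag1, a Notch ligand, was the called gene of 20 in the Notch list (5.0%, beside 3.25% of all genes). It rose by 1.81 ± 0.31, from 7.25, 6.89 and 5.95 to 8.76, 7.79 and 8.96. Among 16 ERK feedback genes, Phlda1 rose by 1.26 ± 0.15 (adjusted p = 9.87e-05), a called share of 6.25%. Among 29 TGF-beta and BMP genes, the inhibitor of DNA binding Id2 rose by 1.48 ± 0.26 while its relative Id3 fell by 1.65 ± 0.33, and Smad6 fell by 0.33 (adjusted p = 0.0485). These were 10.3% of the list, beside 3.25% of all genes. Smad6 lost its call without any one of the 6 arrays other than GFP-negative replicate 3, and Id3 without GFP-positive replicate 3.

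**Figure D3:**
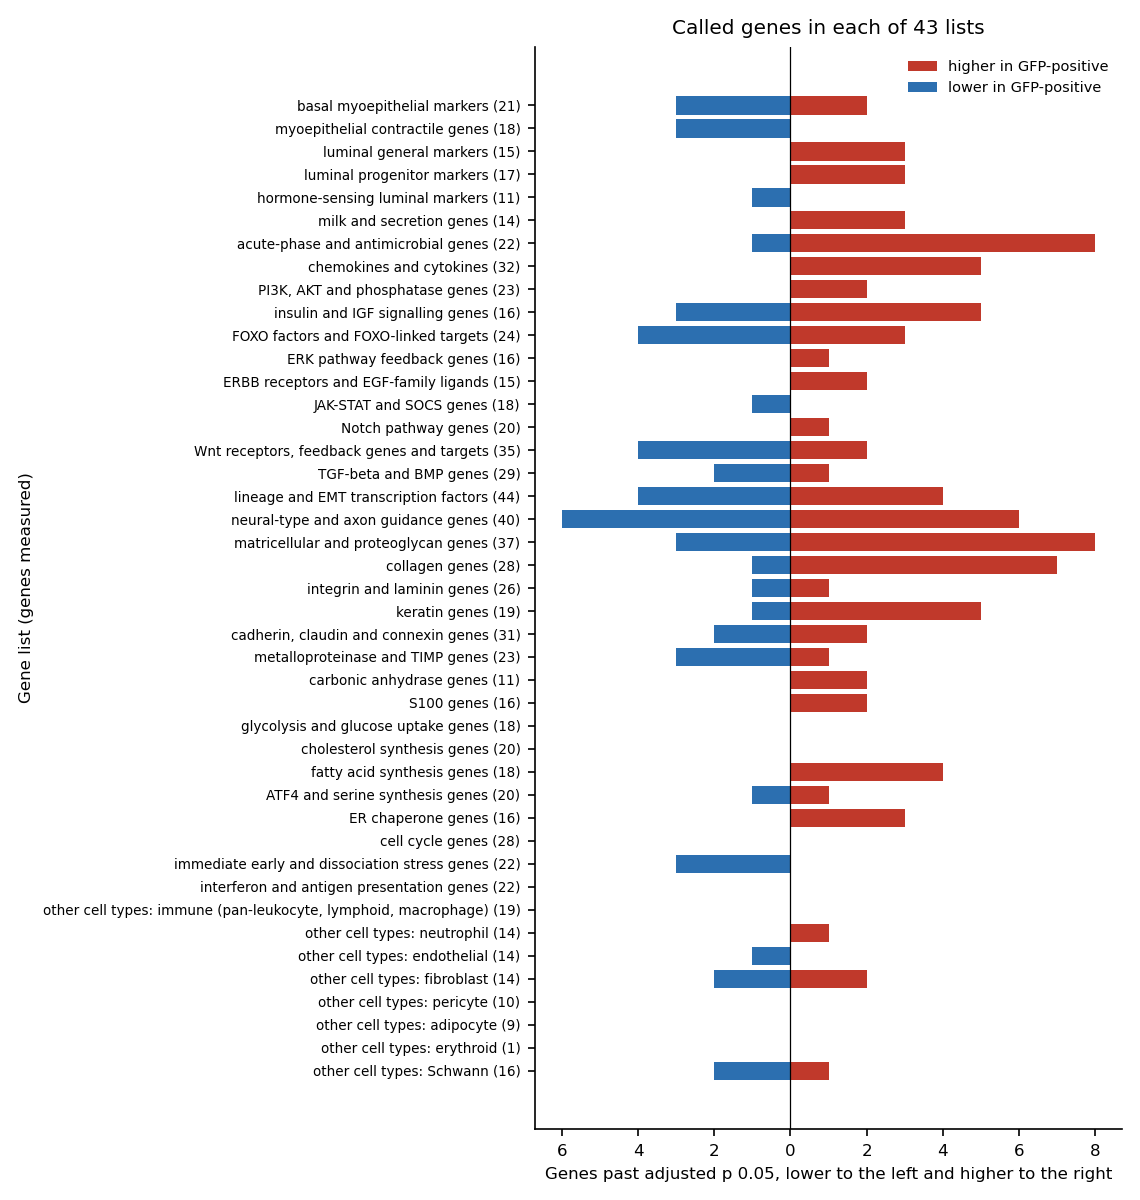
Number of called members higher (red) and lower (blue) in GFP-positive basal cells for each of the 43 gene lists, with the number of measured members. Over all genes, 3.25% were called. Acute-phase genes had 8 higher and 1 lower of 22, matricellular genes 8 and 3 of 37, and insulin and IGF genes 5 and 3 of 16; 0 were called for glycolysis, cholesterol synthesis, cell cycle and interferon genes.

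Several of the largest falls were in genes better known from the nervous system. Grik3, a subunit of kainate-type glutamate receptors, was at 3.58, 3.73 and 3.82 in GFP-positive and at 8.97, 7.72 and 8.71 in GFP-negative cells. The GFP-positive arrays sat at the arrays' median, the control basal mean was 8.35, and the fall was 4.76 ± 0.28, 27.1-fold lower (adjusted p = 5.11e-08). Its promoter is shown as that of the most lowered named gene; it holds none of the 4 motifs above.
Grik3, chr4:125490446-125490745, plus strand: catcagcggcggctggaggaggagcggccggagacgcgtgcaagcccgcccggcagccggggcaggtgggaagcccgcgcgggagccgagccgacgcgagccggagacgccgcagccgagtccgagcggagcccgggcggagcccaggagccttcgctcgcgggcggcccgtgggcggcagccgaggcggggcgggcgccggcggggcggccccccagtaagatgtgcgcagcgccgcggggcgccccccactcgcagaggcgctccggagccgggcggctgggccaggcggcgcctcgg
Scn7a, an atypical sodium channel, was at 5.75, 6.07 and 4.25 against 9.71, 8.75 and 9.61 (-4.00 ± 0.34). Map1b, a microtubule-binding protein, was at 7.23, 5.60 and 5.92 against 10.38, 9.67 and 10.04 (-3.78 ± 0.40). None of these arrays overlapped. The summed linear level of 16 Schwann cell markers, which include Scn7a, was 652 to 934 in GFP-positive against 2094 to 2295 in GFP-negative arrays, and the part of such cells in these falls was not tested. The calcium channel subunit Cacna2d1 fell by 3.62 ± 0.31 and the calcium sensor Vsnl1 by 3.27 ± 0.41; a second Cacna2d1 probe set gave -2.49. Outside the neural list, the largest falls included the TNF family ligand Tnfsf9 (-3.55 ± 0.30), the stretch-responsive Ankrd1 (-2.81 ± 0.27), the complement inhibitor Serping1 (-2.66 ± 0.30) and the transcription factor Tshz2 (-2.49 ± 0.21). A second Tshz2 probe set, at a lower level, gave -0.41.

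Neural-type genes also rose. Of the 40 genes of that list, 6 rose and 6 fell (30.0% called, beside 3.25% of all genes), with a median of 0.06. With one array left out, 4 to 8 rose and 5 to 7 fell. Ntrk2, the receptor of the neurotrophin BDNF, was at 5.86, 5.17 and 5.52 against 3.21, 3.16 and 3.20 (2.33 ± 0.13, adjusted p = 2.32e-08), and the adhesion molecule Ncam1 rose by 1.05 ± 0.22. After its values were seen, Ret, a receptor for GDNF-family ligands, was added (2.06 ± 0.18, adjusted p = 3.28e-06). Ednrb, an endothelin receptor also added then, was unequal among GFP-positive arrays, at 7.02, 5.43 and 3.74, against 3.27, 3.27 and 3.47. Its rise was 2.06 ± 0.49 (adjusted p = 0.0308), and GFP-positive replicate 3 was close to the GFP-negative level. Bche, butyrylcholinesterase, rose by 2.45 ± 0.25 and Tac1, the substance P precursor, by 1.49 ± 0.36. These too were chosen after their values had been seen.

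Luminal and secretory genes were partly raised in GFP-positive basal cells, while the main basal keratins were not separated by the test. The keratin 8 partner Krt18 was at 11.01, 10.03 and 11.02 against 9.92, 9.44 and 9.54 (1.06 ± 0.21, adjusted p = 0.0103), and Krt8 gave 0.54 ± 0.22 (adjusted p = 0.289). Of 15 general luminal markers, 3 rose (20.0% called, beside 3.25% of all genes), with a median of 0.46. These were Krt18, Krt7 (1.36 ± 0.34, adjusted p = 0.0377) and the tight junction protein Cldn7 (1.86 ± 0.26, adjusted p = 0.000421). Without GFP-positive replicate 2, 5 rose, and without GFP-positive replicate 1 or 3, 1 did. Krt7 lost its call without GFP-positive replicate 1 or 3 or GFP-negative replicate 1 or 2. The mean level of this list was 7.42 to 8.39 in GFP-positive arrays, 7.27 to 7.46 in GFP-negative arrays and 9.70 to 9.78 in control Sca1-negative luminal arrays. The ranges of the fractions overlapped, and both lay below the luminal range.

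Of 17 luminal progenitor markers, 3 rose (17.6% called), with a median of 0.50, and 5 rose without GFP-positive replicate 2. Elf5, the transcription factor of alveolar progenitors, was at 7.01, 4.83 and 5.36 against 3.54, 4.16 and 3.67 (1.94 ± 0.43, adjusted p = 0.0205). Its call was lost without GFP-positive replicate 1 or GFP-negative replicate 1 or 3. The secreted proteins Mfge8 and Wfdc18 rose by 1.91 ± 0.23 and 2.17 ± 0.43. The mean of the list was 6.97 to 7.29 in GFP-positive, 6.09 to 6.53 in GFP-negative and 7.83 to 8.05 in control Sca1-negative luminal arrays, so the fractions did not overlap. Of 14 milk and secretion genes, 3 rose (21.4% called, beside 3.25% of all genes), with a median of 1.19, the highest of any list. With one of the 6 arrays left out, 2 to 4 rose. The casein gene Csn1s2a was at 8.71, 7.41 and 9.02 against 3.31, 3.16 and 4.80 (4.62 ± 1.19, adjusted p = 0.0455). Its call was lost with any one of the 6 arrays left out. The milk fat globule enzyme Xdh rose by 1.85 ± 0.30. Csn2, at 10.92 to 11.13 in the 3 GFP-positive arrays against 8.01, 5.96 and 8.95, differed by 3.38 ± 1.09 without passing (adjusted p = 0.132), as did Wap (2.28, adjusted p = 0.0566). Of 11 hormone-sensing luminal markers, the transcription factor Tbx3 fell (9.09% called, beside 3.25% of all genes). It was at 4.57, 3.83 and 4.64 against 6.84, 6.49 and 5.90 (-2.06 ± 0.29, adjusted p = 0.000559). The receptors Esr1 and Pgr gave -0.11 and -0.47 (adjusted p = 0.938 and 0.577).

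Of 21 basal and myoepithelial markers, 2 rose and 3 fell, with a median of -0.14; 1 rose without GFP-positive replicate 1 or 3 or GFP-negative replicate 1. The mean of this list was 8.42 to 8.78 in GFP-positive, 8.67 to 8.93 in GFP-negative and 5.13 to 5.49 in control Sca1-negative luminal arrays. Igfbp5 and the transcription factor Snai2 (1.41 ± 0.32, adjusted p = 0.0213) rose. Lgr5, P-cadherin (Cdh3, -1.28 ± 0.18) and smooth-muscle myosin Myh11 (-0.66 ± 0.15, adjusted p = 0.024) fell. Of 18 contractile genes, Lmod1, which nucleates actin filaments in smooth muscle, fell by 2.26 ± 0.21 (adjusted p = 8.61e-06), from 6.21, 6.88 and 6.73 to 4.72, 4.01 and 4.32. Smtn and Myh11 fell as well, and the list median was -0.19. Without GFP-negative replicate 2, 5 in place of 3 contractile genes fell, and without GFP-negative replicate 1 or 3, 1 did.

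Among 44 lineage and epithelial-mesenchymal transcription factors, Elf5, Foxc1, Snai2 and Zeb1 rose and Tbx3, Egr2, Foxp1 and Runx1 fell, with a median of -0.14. With one array left out, 1 to 5 rose and 2 to 5 fell, the fewest without GFP-negative replicate 1. Foxc1 rose by 1.66 ± 0.35, though GFP-negative replicate 2 was at 5.40 and the other arrays of its group at 3.57 and 3.82. Trps1, a GATA-type repressor chosen after its values were seen, rose by 1.97 ± 0.25, and a second probe set gave 1.07. Of 19 keratins, 5 rose and 1 fell (31.6% called, beside 3.25% of all genes), with a median of 0.03. With one array left out, 2 to 6 rose, the fewest without GFP-positive replicate 3. Krt16, a keratin of stressed epithelia, rose by 2.63 ± 0.37, Krt23 by 2.67 ± 0.39 and Krt15 by 1.23 ± 0.28, and Krt80 fell by 0.96 ± 0.15. N-cadherin, Cdh2, rose from 3.61, 3.19 and 3.35 to 6.13, 5.43 and 6.85 (2.75 ± 0.24, adjusted p = 3.28e-06). Of the 31 cadherin, claudin and connexin genes, Cdh2 and Cldn7 rose and Cdh3 and the junction scaffold Tjp1 (-0.71 ± 0.13) fell, and 4 rose without GFP-negative replicate 2.

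Metabolic and stress genes moved in small groups. Car12, a carbonic anhydrase at the cell surface, was at 8.68, 8.43 and 8.20 against 3.50, 5.62 and 3.63 (4.18 ± 0.44, adjusted p = 3.06e-05), with GFP-negative replicate 2 above the others of its group. Car2, its cytosolic relative, rose by 2.51 ± 0.33, and these were the called genes of 11 carbonic anhydrases. Of 16 S100 genes, S100a1 (0.98 ± 0.21, adjusted p = 0.0173) rose beside S100a8, and 1 rose without GFP-positive replicate 1 or GFP-negative replicate 2. Of 18 fatty acid synthesis genes, the desaturase Scd2 (2.35 ± 0.44), the elongase Elovl6 (2.34 ± 0.37), Thrsp (1.59 ± 0.41) and Lpin1 (1.06 ± 0.27) rose, with 2 genes of the list called higher without GFP-positive replicate 1 or 2 or GFP-negative replicate 1 or 3, and 1 called lower without GFP-negative replicate 3. The lipoprotein receptor Vldlr rose by 2.55 ± 0.23; it and Atf3 (-0.47) were the called genes of 20 in the ATF4 and serine synthesis list. Of 16 ER chaperone genes, 15 had a positive difference, beside 9556 of all 19937 genes. Pdia3, Manf and Hsp90b1 rose by 0.81, 0.69 and 0.51 (18.8% called, beside 3.25% of all genes), with a list median of 0.28. No chaperone passed without GFP-positive replicate 1 (limma), and 1 passed without GFP-positive replicate 2 or 3 or GFP-negative replicate 1 or 2. The immediate early and dissociation stress list, which reads handling of the cells, had a median of -0.29, and its members Egr2, Hspa1a and Atf3 fell; 1 gene of the list fell without GFP-positive replicate 3 or GFP-negative replicate 1 or 2. Its mean level was 8.59 to 8.94 in GFP-positive and 8.98 to 9.08 in GFP-negative arrays. Its part in the other falls was not tested. After their values were seen, the haem-degrading enzyme Hmox1 (1.55 ± 0.29) and the metallothioneins Mt1 and Mt2 (-0.67 and -0.65) were added.

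No gene passed (limma) among 18 glycolysis, 20 cholesterol synthesis and 28 cell cycle genes, of which 3, 4 and 6 had an unadjusted p under 0.05. Their medians were 0.13, 0.18 and 0.23. The proliferation marker Mki67 was at 5.39, 5.09 and 7.16 against 5.23, 5.05 and 5.58. A single GFP-positive array, replicate 3, was high there.

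Some markers of other cell types that the gate could hold moved between the fractions. The pan-leukocyte gene Ptprc was at 3.54, 3.83 and 3.50 against 3.58, 3.48 and 3.79, near the arrays' median. Of 19 immune markers, 0 were called (limma; 1 at an unadjusted p under 0.05), and their mean level was 3.47 to 3.52 in GFP-positive, 3.47 to 3.49 in GFP-negative and 3.48 to 3.59 in control basal arrays. Of 14 neutrophil markers, S100a8 passed (7.14%, beside 3.25% of all genes), and the list mean was 4.29 to 4.47 against 3.93 to 4.04. The neutrophil genes Mpo and Ly6g were at 3.51 to 3.56 and 2.75 to 2.95 in GFP-positive cells. Of 14 endothelial markers, Plvap fell by 0.65 (adjusted p = 0.0303), a called share of 7.14%, and Pecam1 and Cdh5 gave 0.04 and -0.09. Of 14 fibroblast markers, Dcn and Col1a2 rose and Mfap5 and Thy1 fell, with a list mean of 4.39 to 4.49 against 4.41 to 4.62, and the defining Pdgfra and Col1a1 gave -0.04 and -0.10. Of 16 Schwann cell markers, Ncam1 rose and Scn7a and Egr2 fell, and 5 were lower at an unadjusted p under 0.05. The Schwann list mean was 4.43 to 4.53 in GFP-positive and 4.81 to 4.90 in GFP-negative arrays, which did not overlap, and 4.83 to 4.94 in control basal arrays. Its Sox10, which basal mammary cells also express, gave 0.08, and Mbp and S100b gave 0.12 and 0.14. No pericyte, adipocyte or erythroid marker passed (limma), of 10, 9 and 1 measured, and 4, 2 and 0 had an unadjusted p under 0.05. The summed linear level of the fibroblast list was 1402 to 2194 in GFP-positive, 711 to 742 in GFP-negative and 448 to 710 in control basal arrays, and that of the neutrophil list 3191 to 3958, 2813 to 3443 and 2798 to 3311. The part of such cells in the matrix and acute-phase rises was not tested.

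Control basal cells placed the changes. These side-by-side values share arrays with the main comparison, so they are given without a test of likeness. GFP-positive cells differed from control basal cells in 843 genes (4.23%), 463 higher (2.32%) and 380 lower (1.91%), and GFP-negative mutant cells in 32 genes (0.161%), 19 higher (0.0953%) and 13 lower (0.0652%). The latter count was 0 when only the 6 or the 9 basal arrays were fitted (limma; 1362 and 1335 at an unadjusted p under 0.05). For Il24 the differences from control were 5.51 in GFP-positive and 0.30 in GFP-negative cells, for Grik3 -4.64 and 0.12, and for Igf1r -2.22 and 0.07. Saa1 was 6.37 above control in GFP-positive cells and 1.35 above in GFP-negative cells, the latter not passing (adjusted p = 0.331).

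A few genes also differed between the GFP-negative fraction and controls. Krt15 averaged 7.27 in control basal cells and was at 8.84, 8.61 and 8.94 in GFP-negative and 9.71, 10.08 and 10.28 in GFP-positive cells. It was thus above control by 1.52 in GFP-negative cells (adjusted p = 0.0401) and by 2.75 in GFP-positive cells (adjusted p = 1.38e-05). Thy1, a surface antigen, was at 4.55, 5.88 and 5.10 in GFP-negative cells, above a control mean of 3.54 (1.63, adjusted p = 0.0133), and at 3.68, 3.72 and 4.10 in GFP-positive cells. The intermediate filament gene Synm was 1.08 below control in GFP-negative (adjusted p = 0.0306) and 1.78 below in GFP-positive cells. Gas1, chosen after its values were seen, was 1.74 higher in GFP-positive than in GFP-negative cells but only 0.27 above control. Its GFP-negative cells were 1.47 below control, which did not pass (adjusted p = 0.0957).

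**Figure D4:**
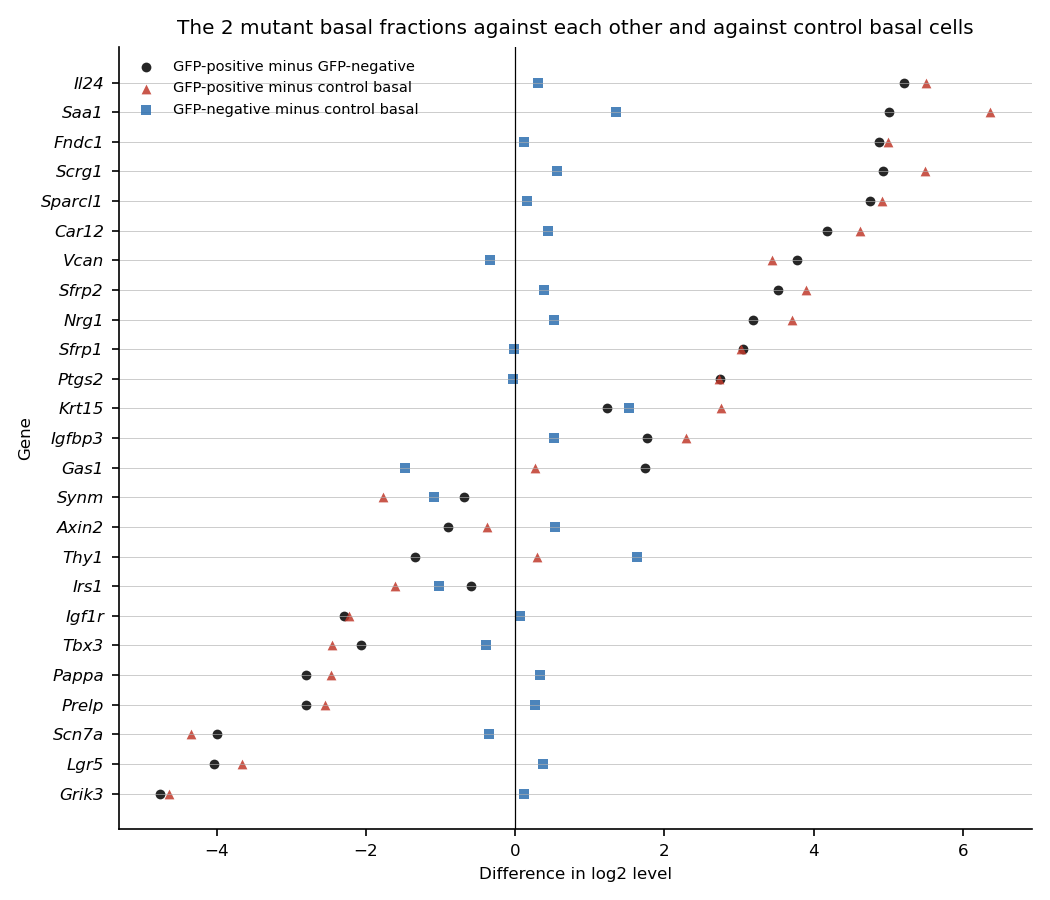
Differences in mean log2 level for 25 genes: GFP-positive minus GFP-negative, GFP-positive minus control basal, and GFP-negative minus control basal cells. For Il24 the 3 differences were 5.21, 5.51 and 0.30; Saa1, Krt15, Thy1, Synm, Gas1 and Irs1 are the genes whose GFP-negative cells lie over 1 from control. The comparisons share arrays.

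The changed genes were also placed on the basal to luminal axis of control mice, measured in arrays outside the comparison. Control luminal and basal cells differed in 2769 genes (13.9%), with 7.07% higher and 6.82% lower in luminal cells. Of the 239 lower genes, 131 (54.8%) were lower in control luminal than basal cells and 12 (5.02%) were higher. Of the 409 higher genes, 87 (21.3%) were higher in luminal cells and 75 (18.3%) were higher in basal cells. The lower genes thus lay mostly on the basal side by count, and the higher genes were spread over both sides. A gene called lower has to be expressed in GFP-negative basal cells, so part of that lean may be built in. The median level of the 239 genes was 6.39 there and 6.31 in control basal cells. No test was made of the shares on this axis.

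**Figure D5:**
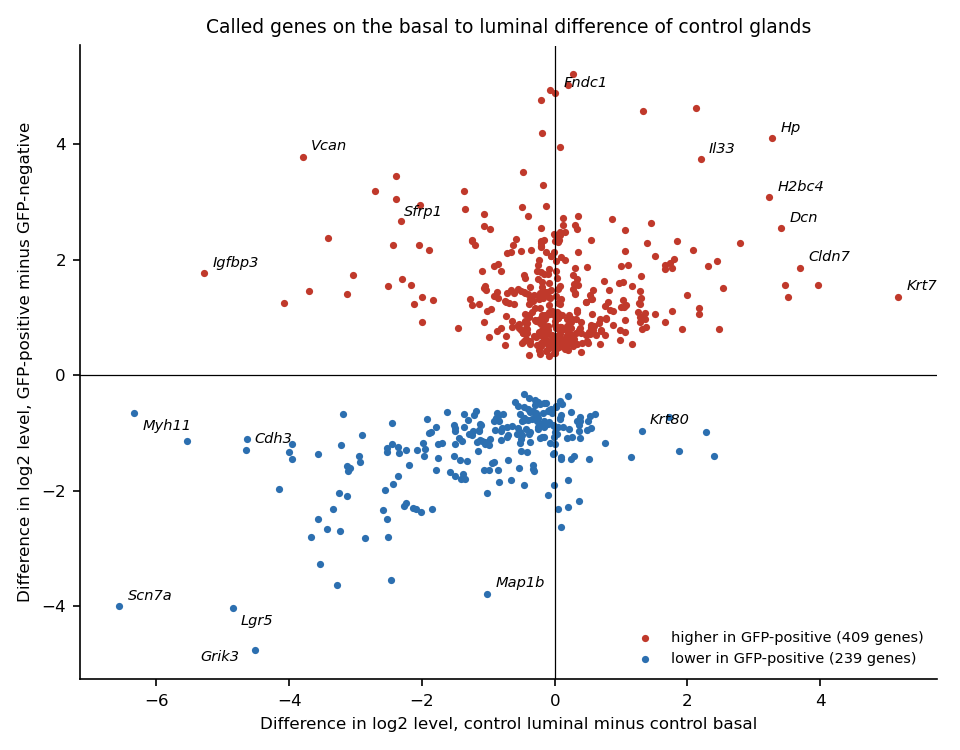
Control luminal minus control basal difference (horizontal axis, log2) against GFP-positive minus GFP-negative difference (vertical axis, log2) for the 648 called genes. Of the 239 genes below 0, 131 were called lower in luminal cells; the 409 genes above 0 fall on both sides.

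The luminal arrays of the same genotypes share no array with the basal comparison, though the labels do not say whether they came from the same mice. Mutant GFP-positive Sca1-negative luminal cells differed from control in 378 genes (1.9%), 242 higher (1.21%) and 136 lower (0.682%). Higher in both were 45 of the 409 genes, which are 18.6% of the 242, and lower in both were 14, 5.86% of the 239 and 10.3% of the 136. Il33, Dcn and Samd5 rose in basal cells and were lower in mutant luminal cells, and Ptprz1 and Celf2 went the other way. In Sca1-positive luminal cells, with 2 mutant arrays, 36 genes were higher (0.181%) and 9 lower (0.0451%), and 11 of the 36 (30.6%) were among the 409. These were Saa1, Saa2, Igfbp3, Igfbp5, Lrg1, Ceacam10, Slc28a3, Muc15, Sat1, Rb1 and Chka, and no gene was lower in both.

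The named calls differed in how well they held. Of the 240 genes that the naming rule or a later choice selected, 150 were called, and 50 of these stayed called in every alternative run other than the paired fit of the 6 arrays. None of the 150 reversed its direction under any alternative, quantile normalization and median centring of the arrays included. Many alternatives keep the same group means, and the largest changes were named for arrays that do not overlap. A reversal was thus unlikely from the start, and its absence says little. Those 50 include Il24, Saa1, S100a8, Hp, Il33, Fndc1, Scrg1, Sparcl1, Vcan, Fbln5, Sfrp1, Nrg1, Igfbp5, Sesn3 and Car12 among the raised genes. Among the lowered genes they include Grik3, Lgr5, Scn7a, Map1b, Cacna2d1, Igf1r, Pappa, Lifr, Prelp, Lmod1 and Cdh3. Calls that passed in fewer than 10 of the alternatives were those of Csn1s2a, Chka, Lpin1, Thrsp, Smad6, Atf3, Egr2, Nkd1, Frzb, Mt1, Txnip, Hsp90b1, Pdia3, Inpp4b, Mmp23, Mfap5, Adam19, Ceacam10, Ednrb, Tac1, Bcl3 and the hyaluronan receptor Cd44 (0.81, chosen after its values were seen).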

How the data were processed

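RNA of sorted mouse mammary cells was amplified and hybridised to Affymetrix arrays. The deposited log2 values of 34760 probe sets on 20 arrays ranged from 1.98 to 13.07, with none missing; affy is the tool listed per the submitters' processing notes, and its steps, version, normalization and annotation build are not given in the sources used here. Depth has no equivalent on arrays, and 3 arrays a group limit the precision. GEO's platform annotation gave 1 symbol for 21640 probe sets, several for 1321 and none for 11799; 21553 were found in the RefSeq table by gene number, which changed 0 symbols. For the 954 genes with several probe sets, the one with the highest mean was used, leaving 19937 genes.

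One mean per group was fitted over 7 groups and 20 arrays (limma 3.58.1, R 4.3.3), and all printed adjusted p are from this fit with Benjamini-Hochberg adjustment; ± marks the fit's SE. Where nothing says that arrays came from separate animals, p measures only the spread between arrays. Groups came from sample titles. The script was tested on simulated data for this comparison and 19937 genes. Same-numbered arrays of the fractions had deviations correlated at 0.029 to 0.041, and differently numbered ones at -0.032 to -0.002. These values are small and the labels state no pairing, so the main fit used none. Pairing is not excluded by this.

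Named genes were the 20 called genes with the largest rise and the 20 with the largest fall whose arrays do not overlap (without Gm and Rik symbols), in each list up to 6 called and 2 other members by size, and fixed check genes; other names are said to be chosen later. The comparison and the 43 lists were chosen with earlier results of these data known. Alternatives changed the arrays fitted, replicate block, weights, eBayes settings, probe set choice, filter, scaling and each array left out.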

Additional observations from a re-analysis of the deposited data

How the results depend on the processing

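The replicate number as a block in the fit of all 20 arrays gave 645 called genes in place of 648, of which 594 were shared; as a random block it gave 666, with a consensus correlation of 0.013. Each array deviated most like its own number in the other fraction (0.041, 0.029 and 0.031 against -0.032 to -0.002 for other numbers), a hint from the data and not from the design. In the fit of the 6 compared arrays the block left 0 higher, 0 lower and 0 genes in all (limma; 2049 at an unadjusted p under 0.05), and without it 88 higher and 46 lower, 134 in all. The 9 basal arrays gave 134 higher and 64 lower, 198 in all. These fits estimate the spread from fewer arrays. Testing all 34760 probe sets left 159 lower genes, and weights, trend and robust settings, probe set averaging, a level filter, quantile normalization and median centring gave 586 to 703 genes in all. Leaving out one of the 6 arrays gave 284 to 408 higher and 150 to 269 lower genes, 474 to 604 in all, with 150 lower without GFP-positive replicate 2. GFP-positive minus control basal cells gave 186 higher, 90 lower and 276 in all with the compared arrays only, 69, 29 and 98 with the block there, 186, 100 and 286 with the 9 basal arrays, and 248 to 421 lower with one array left out. GFP-negative minus control basal cells gave 0 higher, 0 lower and 0 in all in these 3 fits (limma; 1362, 1324 and 1335 at an unadjusted p under 0.05), 7, 3 and 10 with array weights and 10, 8 and 18 with all probe sets. With one array left out that comparison had 13 to 31 higher and 4 to 32 lower genes, 25 to 63 in all; 6 were lower without replicate 2 of both fractions. The median of all genes was -0.01 as deposited and -0.02 after quantile normalization. Of 150 called named genes, 0 reversed, which the shared group means and the choice of genes made likely. The causes of other changes were not tested.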
